A study of Mus musculus with 4 samples.

Results

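The subunits of eukaryotic initiation factor 3 (eIF3) are represented here by 10 genes, Eif3a, Eif3b, Eif3c, Eif3d, Eif3e, Eif3f, Eif3g, Eif3h, Eif3i and Eif3m, out of 25206 genes with a probe set on the array. They were chosen by gene symbol, and each had 1 probe set, named by its Entrez gene number, with a value on all 4 arrays. The symbol of 9 members came from the array's annotation table and that of Eif3g from its Entrez number in the RefSeq gene table. All RNA came from erythroblasts of mouse fetal liver at stage E14.5, taken with magnetic beads for the red cell surface antigen Ter119. The 3 groups were RNA precipitated with an antibody against the RNA-binding protein Cpeb4 (IP, 2 biological replicates), RNA precipitated with rabbit IgG (1 array) and total input RNA (1 array). No genotype or treatment set the groups apart, and neither the strain nor the pooling of livers was given in the sources used here.

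eIF3 is the largest of the translation initiation factors. It binds the small ribosomal subunit, helps to recruit the initiator tRNA complex and the mRNA, and keeps the ribosomal subunits apart until a start codon is found. Its core is built from subunits with PCI or MPN domains, folds shared with the proteasome lid and the COP9 signalosome, to which a mobile module of Eif3b, Eif3g and Eif3i and the cap-binding subunit Eif3d attach. Red cell precursors depend on heavy translation of globin mRNA, and Cpeb4 has been reported to act on translation in these cells. The arrays measured the mRNAs that encode the subunits, not the proteins.

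Values are the deposited log2 expression values, differences are given on the log2 scale as IP minus control, and levels are compared between arrays only, since probe sets of different genes do not share a scale. All 10 members passed the filter on low values, a mean over the 4 arrays of at least 3.857, among 14244 tested genes. A gene rose or fell when limma's adjusted p was below 0.05 in a fit over all tested genes. The IP replicates alone supplied the spread in this fit, and the single control arrays are taken to vary to the same degree. The control side of every difference therefore has no replicate check, and whether an IgG or input preparation was shared with an IP replicate was not stated.

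The arrays differed in ways that bear on every member. The IgG array had a narrower range, with an SD of 1.74 over all probe sets against 2.05 to 2.13 on the others. Of 5640 tested genes whose mean level lay in the range spanned by the members (6.22 to 10.81), 85.5% were lower on the IgG than on the input array, and the median of IP minus IgG was 0.71, against 0.09 over all tested genes. The lower end of this range is the mean of Eif3m. The next lowest means were 7.47 for Eif3e and 8.49 for Eif3g, so the range extends below the level of most members and matches level only roughly. Exactly equal values also occurred on different arrays: 21.8% of tested genes had the same value on both IP arrays, within 1e-09. For such genes limma's standard error comes almost wholly from a very small prior spread and is no measured error. All 11 erythroid markers with a probe set, of 15 listed, lay above the median of each array. So did all 6 megakaryocyte markers, and at least 6 of 7 neutrophil markers did on each array. This position therefore does not tell erythroid cells from these others.

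The transcripts of the subunits did not move as a block. Both IP arrays lay above both controls for 4 members (Eif3h, Eif3e, Eif3f and Eif3i) and between IgG and input for 4 others (Eif3b, Eif3d, Eif3g and Eif3m). Eif3a stood at its input level and Eif3c at its IgG level. Among all tested genes 20.7% had both IP arrays above both controls and 22.4% had them above IgG and below input, and in the members' level range these shares were 31.6% and 39.0%. The members' 4 of 10 in each class are near the shares in that range. The replicates of a member differed by at most 0.15 (Eif3e), and 7 of 10 members differed by less than 0.1 between them.

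**Figure D1:**
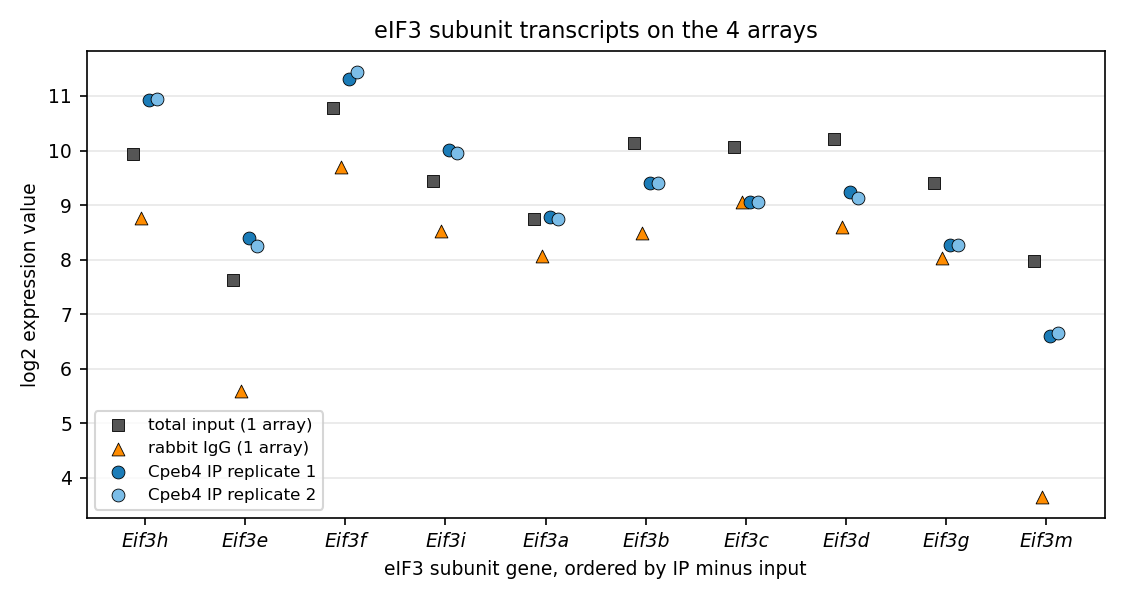
Deposited log2 expression values (vertical axis) of the 10 eIF3 subunit genes on the input array (squares), the IgG array (triangles) and the 2 Cpeb4 IP arrays (circles), ordered by IP minus input. Both circles lie above the square for Eif3h, Eif3e, Eif3f and Eif3i, and below it for Eif3b, Eif3c, Eif3d, Eif3g and Eif3m.

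Among the PCI and MPN subunits, Eif3h was the member with the largest excess over input. Eif3h encodes an MPN-domain subunit that pairs with Eif3f. Its values were 9.93 on the input array, 8.76 on the IgG array and 10.93 and 10.95 on the IP arrays. Both IP values stood above both controls by far more than their own difference of 0.01. Eif3h rose 4.53-fold over IgG (2.18, SE 0.01, limma adjusted p = 0.0063) and 2.02-fold over input (1.01, SE 0.01, limma adjusted p = 0.016), and it was the only member that passed upward against input.

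Eif3f, the other MPN-domain subunit, followed the same order. It had values of 10.78 on input, 9.69 on IgG and 11.31 and 11.44 on the IP arrays, its highest levels. It rose 3.22-fold over IgG (1.69, SE 0.09, limma adjusted p = 0.031), a call that was lost with limma's trended and robust prior (limma adjusted p = 0.054). Its excess of 0.60 over input missed the threshold (limma adjusted p = 0.13), and after quantile normalization again it passed at 0.76 (limma adjusted p = 0.043).

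Eif3e, also known as Int6, encodes a PCI-domain subunit. Its values were 7.62 on input, 5.60 on IgG and 8.40 and 8.25 on the IP arrays. The IgG array was the lowest by a wide margin, 2.02 under input. Eif3e rose 6.64-fold over IgG (2.73, SE 0.11, limma adjusted p = 0.024) and stood 0.71 above input without passing (SE 0.11, limma adjusted p = 0.13).

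Eif3m, a further PCI-domain subunit, had the widest range of all members. It read 7.97 on input, 3.66 on IgG and 6.60 and 6.65 on the IP arrays. Its IgG value was 4.32 under input and lay below that array's median of 4.49, where a signal near background cannot be told from a low level, since no detection calls were used. The measured difference of 2.97 from IgG passed the test (limma adjusted p = 0.0089), but its size and error rest on that low value, so no fold is given. Against input it fell by 1.35 (SE 0.04, limma adjusted p = 0.029), with both IP arrays between the controls.

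Eif3a, the largest subunit and part of the PCI core, was level between IP and input. It had values of 8.75 on input, 8.07 on IgG and 8.77 and 8.75 on the IP arrays. The difference from input of 0.01 was smaller than the difference of 0.03 between replicates (limma adjusted p = 0.71). Its rise of 0.69 over IgG (SE 0.02, limma adjusted p = 0.017) became 0.02 after the 4 arrays were quantile normalized again and then did not pass (limma adjusted p = 0.71).

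Eif3c, the PCI subunit that contacts eIF1 in yeast, was the one member with no excess over IgG. Its value was 9.06 on the IgG array and on both IP arrays, equal within 1e-09, and 10.07 on input. Such a tie of all 3 precipitates occurred in 3.33% of tested genes (474 of 14244). Against input Eif3c fell by 1.01 (limma adjusted p = 0.016), a call that has no measured replicate spread. After quantile normalization again Eif3c lay 0.54 below IgG and passed downward (-0.54, limma adjusted p = 0.017).

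The mobile module was split. Eif3i, a WD-repeat protein, had values of 9.44 on input, 8.53 on IgG and 10.01 and 9.95 on the IP arrays, which again lay above both controls. It rose 2.73-fold over IgG (1.45, SE 0.05, limma adjusted p = 0.019) and stood 0.54 above input without passing (limma adjusted p = 0.076). Quantile normalized again, it rose by 0.91 over IgG and by 0.73 over input (limma adjusted p = 0.014 and 0.039).

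Its partners Eif3b and Eif3g were higher in input than in the IP. Eif3b, a scaffold with an RNA recognition motif, read 10.13 on input, 8.48 on IgG and 9.41 on both IP arrays, a tie. It rose by 0.92 over IgG (limma adjusted p = 0.0063), which became 0.33 after quantile normalization again (limma adjusted p = 0.028), and against input it fell by 0.73 (limma adjusted p = 0.016), again without a measured spread. Eif3g, which also carries an RNA recognition motif, read 9.41 on input, 8.03 on IgG and 8.27 and 8.28 on the IP arrays. Against input Eif3g fell by 1.14 (SE 0.01, limma adjusted p = 0.016), a 2.20-fold difference. Its small rise of 0.24 over IgG (limma adjusted p = 0.019) turned to -0.44 after quantile normalization again and passed downward (limma adjusted p = 0.020).

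Eif3d, the subunit that can bind the mRNA cap, resembled Eif3g in order but passed against neither control. It had values of 10.21 on input, 8.60 on IgG and 9.24 and 9.13 on the IP arrays. It stood 0.58 above IgG (SE 0.08, limma adjusted p = 0.078) and -1.02 from input (SE 0.08, limma adjusted p = 0.070). Both IP values lay between the controls, and both gaps exceeded the replicate difference of 0.11. With renewed quantile normalization its difference from IgG was 0.02 (limma adjusted p = 0.88), IP replicate 2 lay below IgG, and the fall of -0.98 from input passed (limma adjusted p = 0.042).

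Compared with IgG, 8 of the 10 members rose, and 5 exceeded IgG at least 2-fold in each replicate. Of all tested genes 29.5% rose and 18.8% reached that size, and in the members' level range 52.5% and 35.2% did. None fell, by limma or by a test with 1 common IP spread for genes of like level (the common-spread test), and 0 were lower at an unadjusted p under 0.05, whereas 17.1% of all tested genes fell by limma (6.35% in the level range) and 22.2% by the common-spread test (9.11% in the level range). The median difference was 1.20 in replicate 1 and 1.17 in replicate 2, where all tested genes had 0.08 and 0.10 and genes in the level range 0.70 and 0.72. By the common-spread test 8 members also rose, with Eif3d in place of Eif3g, and 39.4% of all tested genes and 69.4% in the level range did. After quantile normalization again 6 members rose (Eif3b, Eif3e, Eif3f, Eif3h, Eif3i and Eif3m) and 2 fell, where 31.2% and 29.1% of all tested genes and 37.5% and 30.1% in the level range did.

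Compared with input, 1 member rose and 4 fell (Eif3b, Eif3c, Eif3g and Eif3m), where 9.46% of all tested genes rose and 13.4% fell. In the level range the shares were 9.86% and 22.3%. Only Eif3h was at least 2-fold above input in both replicates, as were 4.09% of all tested genes and 5.48% in the level range. At least 2-fold lower than input in both replicates were 3 members (Eif3c, Eif3g and Eif3m), a size reached by 5.18% of all tested genes and 8.32% in the level range. The median difference was -0.35 in replicate 1 and -0.36 in replicate 2, where all tested genes had 0.00 and genes in the level range -0.12 and -0.11. The members ran from -1.35 for Eif3m to 1.01 for Eif3h, with an SD over members of 0.90, against 0.63 over all tested genes. The SD was not taken over the level range, where differences from input were wider. The 25th and 75th percentiles were -0.57 and 0.22 there, against -0.32 and 0.18 over all tested genes. The common-spread test, which does not depend on a member's own tie, had 4 members up (Eif3e, Eif3f, Eif3h and Eif3i) and 5 down, with 14.9% and 22.4% of all tested genes and 21.8% and 38.5% in the level range. After quantile normalization again 3 members rose and 5 fell, with 9.17% and 9.74% of all tested genes and 14.8% and 16.3% in the level range. The comparisons with IgG and with input share both IP arrays.

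**Figure D2:**
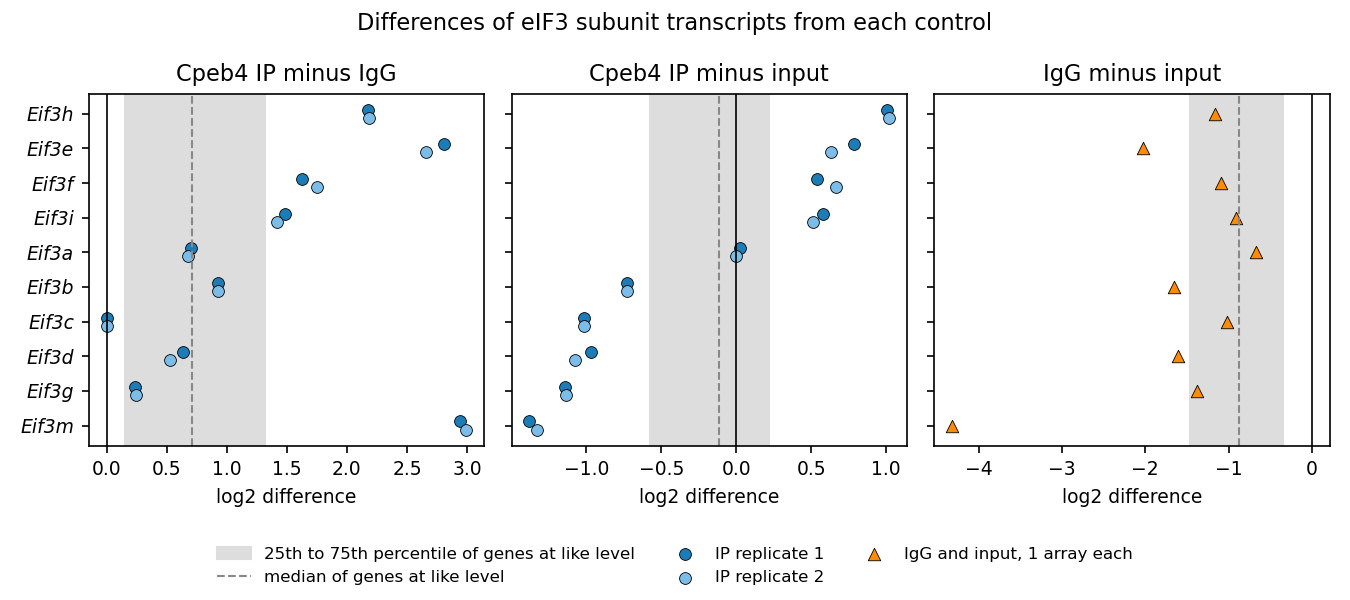
Log2 differences (horizontal axes) of each eIF3 subunit gene for each Cpeb4 IP replicate minus IgG (left) and minus input (middle), and for the IgG array minus the input array (right); the grey band and the dashed line give the range from the 25th to the 75th percentile and the median of the 5640 tested genes in the members' level range. Eif3h, Eif3e, Eif3f, Eif3i and Eif3m lie right of the band in the left panel, and Eif3b, Eif3c, Eif3d, Eif3g and Eif3m lie left of it in the middle panel.

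On the deposited scale every member had a lower value on the IgG than on the input array. The difference ran from -0.67 for Eif3a to -4.32 for Eif3m, with a median of -1.27, where all tested genes had -0.16 and genes in the level range -0.88. At least 2-fold lower in IgG were 8 members, against 24.0% of all tested genes and 44.0% in the level range. After quantile normalization again the median was -0.65 and 3 members were at least 2-fold lower, against 13.9% of all tested genes and 16.6% in the level range, while Eif3a stood 0.16 higher in IgG. With 1 array each this is a description with no test. The low IgG values enter every difference of IP from IgG.

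A comparison of ranks does not depend on the narrower range of the IgG array. Among all 25206 probe sets of its own array, Eif3h moved from percentile 98.5 on input and 97.3 on IgG to 99.7 and 99.6 on the IP arrays. Eif3e stood at 87.0 on input, 72.5 on IgG and 93.6 and 92.5 on the IP arrays. Eif3m stood at 89.7, 29.6, 79.6 and 80.0 in the same order. Eif3c ranked lower on the IP arrays (96.5 on each) than on IgG (98.0) and input (98.7), and Eif3g likewise stood at 92.8 and 92.7 on the IP arrays against 95.0 and 97.2. By rank, too, Eif3h, Eif3e, Eif3f and Eif3i were higher on both IP arrays than on either control. The same 4 members had both IP arrays above both controls after quantile normalization again, as had 24.1% of all tested genes and 31.6% in the level range. Quantile normalization gives like ranks like values, so this order follows from the ranks and is no separate result. Under that normalization 2 members stayed between IgG and input (Eif3b and Eif3m), against 19.6% of all tested genes and 17.2% in the level range. Eif3c and Eif3g then lay below both controls, against 26.5% and 26.3%, and Eif3a and Eif3d were mixed.

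**Figure D3:**
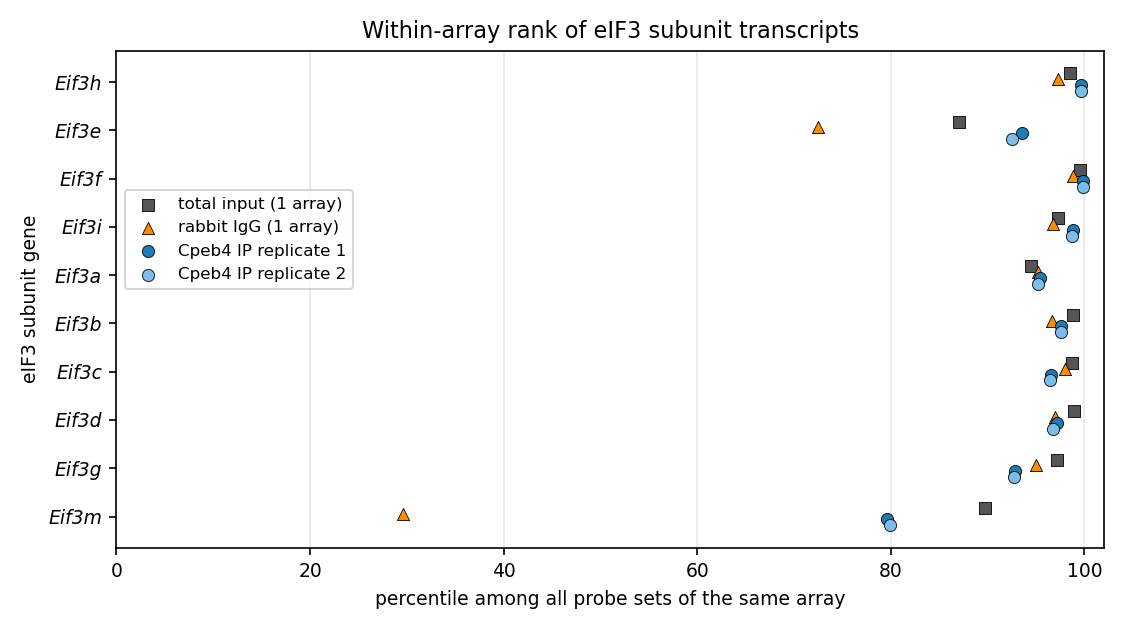
Percentile of each eIF3 subunit gene among all 25206 probe sets of the same array (horizontal axis) on the input array (squares), the IgG array (triangles) and the 2 Cpeb4 IP arrays (circles). Eif3m on IgG, at 29.6, and Eif3e on IgG, at 72.5, lie apart from the other values, which are all above 79.

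Upstream sequence is shown for 3 members that stood for different orders of the arrays: Eif3f (IP above both controls), Eif3m (IP between them) and Eif3c (IP at the IgG level). RefSeq (GRCm38.p6) promoters were at hand for 7 members. Each sequence below is the 250 bases before the annotated start, 5′ to 3′ on the gene's strand, with matches in capitals to CACGTG (the E-box of Myc and USF factors), CCGGAA or its reverse TTCCGG (a core bound by ETS factors) and TATAAA or its reverse TTTATA. The windows are chr7:108934165-108934414 on the plus strand for Eif3f, chr2:105017028-105017277 on the minus strand for Eif3m and chr7:126566367-126566616 on the minus strand for Eif3c.
Eif3f: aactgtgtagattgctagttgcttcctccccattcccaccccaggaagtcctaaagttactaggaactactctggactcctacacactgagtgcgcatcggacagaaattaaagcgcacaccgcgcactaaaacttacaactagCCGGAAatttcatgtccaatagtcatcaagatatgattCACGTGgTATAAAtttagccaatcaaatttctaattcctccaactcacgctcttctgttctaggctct
Eif3m: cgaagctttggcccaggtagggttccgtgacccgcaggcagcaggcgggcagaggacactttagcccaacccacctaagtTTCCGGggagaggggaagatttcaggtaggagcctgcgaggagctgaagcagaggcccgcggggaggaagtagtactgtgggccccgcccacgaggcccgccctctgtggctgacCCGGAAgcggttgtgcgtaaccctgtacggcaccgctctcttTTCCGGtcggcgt
Eif3c: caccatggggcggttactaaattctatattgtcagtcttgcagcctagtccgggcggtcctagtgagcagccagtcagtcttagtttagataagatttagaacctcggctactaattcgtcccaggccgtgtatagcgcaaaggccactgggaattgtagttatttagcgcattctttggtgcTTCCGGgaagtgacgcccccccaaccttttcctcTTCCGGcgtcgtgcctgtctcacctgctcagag
Eif3f held 1 CACGTG, with its first base 68 bases before the start, 1 TATAAA at 61 and 1 CCGGAA at 106. Eif3m held the ETS core in 3 places, at 170, 55 and 13 bases before the start, and Eif3c in 2, at 67 and 33. Of the 7 members, 5 held CCGGAA or TTCCGG, 1 held CACGTG and 2 held TATAAA or TTTATA. Of 17492 protein-coding genes with such a window, 15.2% held the ETS core, 6.64% CACGTG and 12.4% the TATAAA letters. Of the members with the ETS core, Eif3f had both IP arrays above input, and Eif3c, Eif3d, Eif3g and Eif3m had them below it. Of the members with a window but without the core, Eif3b had both IP arrays below input and Eif3a stood at its input level. Members with and without the core thus lay below input. No window was at hand for Eif3e, Eif3h and Eif3i, which lay above input as Eif3f did. The letters could therefore not be compared with the direction over the whole family. A match is a description of the letters and not a bound site.

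As deposited, both further subunits with a probe set were between the controls. Eif3k, a PCI-domain subunit, read 9.41 on input, 8.24 on IgG and 9.10 on each IP array. Eif3l, a PCI-domain subunit that pairs with Eif3k at the edge of the complex, read 9.75 on input, 8.30 on IgG and 9.66 on both IP arrays, a tie. Both rose over IgG, by 0.86 and 1.36 (limma adjusted p = 0.0063 for each), and both passed downward against input, by -0.31 and -0.09 (limma adjusted p = 0.022 and 0.043). The Eif3l difference from input is small and was not called by the common-spread test. Under renewed quantile normalization Eif3l lay above both controls, 0.02 over input (limma adjusted p = 0.71), and Eif3k no longer passed against input (limma adjusted p = 0.12). Their rises over IgG were then 0.22 for Eif3k and 0.74 for Eif3l (limma adjusted p = 0.046 and 0.014).

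The initiation factors that work beside eIF3 also had medians above 0 against IgG. The counts of each list stand beside 29.5% of all tested genes that rose over IgG and 17.1% that fell. In the members' level range these shares were 52.5% and 6.35%. After quantile normalization again they were 31.2% and 29.1%, and in the level range 37.5% and 30.1%. Against input, as deposited, 9.46% of all tested genes rose and 13.4% fell, and in the level range 9.86% and 22.3%. Of 13 tested preinitiation complex factors, which bring the initiator tRNA and recognise the start codon, 7 rose over IgG and none fell (0 lower at an unadjusted p under 0.05 by limma, 1 by the common-spread test), with a median of 1.25. Once the arrays were quantile normalized again, 7 passed upward and 2 downward and the median was 0.58. Against input 1 rose, Eif1b by 0.76, and 2 fell, among them Eif2s1, the alpha subunit of eIF2, by 1.24. Of 13 cap-binding and helicase factors 5 rose and 1 fell against IgG, with a median of 0.44, while with the renewed normalization 5 passed in each direction and the median was 0.25. Against input 3 of these factors rose and 3 fell, with a median of 0.04. Eif4b, which stimulates the helicase, rose by 1.98 over IgG and 0.65 over input, and Eif4ebp2, a repressor of cap-dependent translation, by 0.78 and 1.29. In the other direction, Eif4ebp3 fell against both controls, with differences of -0.32 and -0.89. Lowest against input was Eif4a3 at -2.36, without passing (limma adjusted p = 0.11). Of the 5 subunits of eIF2B, the exchange factor of eIF2, 2 rose over IgG, with a median of 0.96, and all 5 had both IP arrays between the controls as deposited. Both IP arrays lay above IgG and below input in 22.4% of all tested genes and 39.0% in the level range. Against input 0 eIF2B subunits rose and 1 fell, with a median of -0.36.

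Complexes built on the same PCI and MPN folds were also measured. Their counts stand beside 29.5% of all tested genes that rose over IgG, and 52.5% in the members' level range. Of 10 COP9 signalosome subunits 8 rose over IgG, with a median of 1.30 and Cops9 highest at 2.29, and of 9 proteasome lid subunits 7 did, with a median of 0.97 and Psmd6 highest at 1.86. With renewed quantile normalization the signalosome had 7 up and 2 down (median 0.59) and the lid 5 up and 1 down (median 0.24). Of all tested genes 31.2% were then up and 29.1% down, and in the level range 37.5% and 30.1%. Against input, as deposited, 9.46% of all tested genes were up and 13.4% down, and in the level range 9.86% and 22.3%. The signalosome had 2 up and 2 down against input (median -0.13) and the lid 1 up and 3 down (median -0.52). The eIF3 members, with a median of -0.36 against input, lay between these lists.

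**Figure D4:**
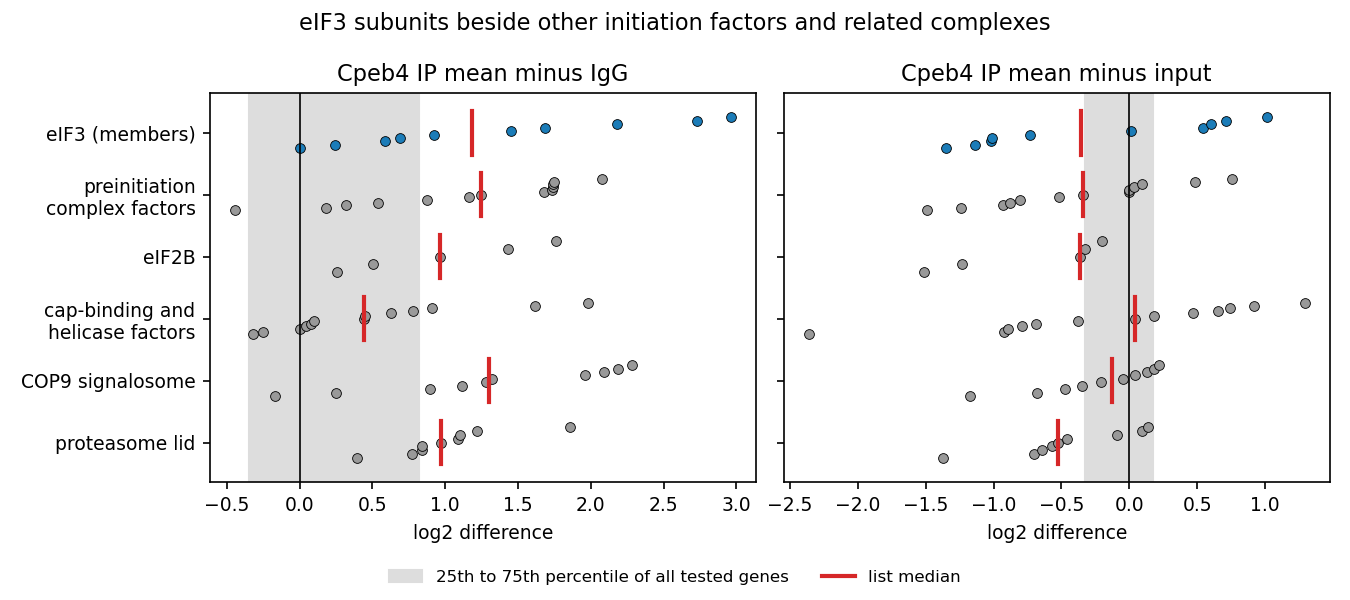
Log2 differences (horizontal axes) of the Cpeb4 IP mean from IgG (left) and from input (right) for the eIF3 members (blue) and for other initiation factors and related complexes (grey), 1 point per tested gene; red lines are list medians and the grey band runs from the 25th to the 75th percentile of all tested genes. The eIF3 median is 1.19 against IgG and -0.36 against input, and the eIF3 points extend past the band on both sides against input.

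The genes outside the family whose pattern over the 4 arrays was nearest to the median pattern of the members were Sec61a1, Tbcb, Nup205, Ndufaf7 and Mtch1, out of 14232 tested genes. Likeness was the Euclidean distance between values centred on each gene's own mean, and these distances were 0.065 to 0.071. The nearest member, Eif3b, was 0.47 away and the farthest, Eif3m, 2.10, so the median pattern described no single subunit closely.

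Markers of other blood and liver cells were higher on the IP arrays than on input, while the erythroid markers were not. The summed level (log2 of the sum of linear values) of 5 hepatocyte markers was 6.70 on input, 7.68 on IgG and 8.96 and 9.20 on the IP arrays. That of 6 megakaryocyte markers was 9.93, 10.85, 11.69 and 11.80 in the same order, that of 7 neutrophil markers 9.39, 10.73, 11.34 and 11.33, and that of 8 macrophage markers 7.72, 8.20, 9.58 and 9.68. For 4 endothelial markers it was 6.22, 6.35, 7.36 and 7.12, for 4 lymphoid markers 6.06, 6.48, 6.73 and 6.84, and for the 11 erythroid markers 14.29, 14.04, 14.19 and 14.22. Both IP arrays lay above both controls for 5 of 5 tested hepatocyte, 6 of 6 megakaryocyte, 4 of 7 neutrophil, 4 of 7 macrophage, 1 of 4 endothelial, 1 of 1 lymphoid (Ptprc) and 3 of 11 erythroid markers. Of all tested genes 20.7% did, and the endothelial and erythroid counts are near that share. After quantile normalization again the counts were 5, 4, 4, 3, 2, 1 and 3 in the same order, beside 24.1% of all tested genes. No marker had a value of 0, and without detection calls none can be called absent. The part of other cells' RNA in the eIF3 differences was not tested. These are levels in precipitated or input RNA, so a difference between them measures neither the number of cells of a type nor the RNA per cell.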

How the data were processed

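RNA of 4 samples was hybridised to Affymetrix arrays as biotinylated cRNA, per the labels' protocols. The deposited values are log2 expression values made by the authors with RMA and the affy package, per the submitters' processing notes; versions, probe definition and settings are not given in the sources used here. Groups came from the sample titles. Of 25206 probe sets, 23185 were named by the array's annotation and 555 more, Eif3g among them, by their Entrez number in RefSeq (GRCm38.p6). Genes were tested when their mean reached the 40th percentile of named genes (3.857), which left 14244. Differences were fitted with limma 3.58.1 in R 4.3.3 (3 groups, 1 residual degree of freedom) with Benjamini-Hochberg adjustment. Both IP arrays held equal values for 3111 tested genes, which made limma's prior SD very small (0.00616). The common-spread test used the IP spread in 20 bins of mean level and a normal distribution. Both tests were run on simulated data that held no ties and had the same spread on control and IP arrays. That run could therefore not show how ties or an unmeasured control spread affect the calls. The members and lists were chosen with earlier results of these data known. All 10 members are named; of other lists, the 2 highest and 2 lowest against a control could be named, and the 5 genes nearest in pattern. Precision is limited by the number of arrays.

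Other settings tried were testing all named genes, a filter at the 60th percentile, quantile normalization again, eBayes with trend and robust, the common-spread test, an adjusted p below 0.1, 1.5- and 4-fold sizes and each IP replicate left out.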

Additional observations from a re-analysis of the deposited data

How the results depend on the processing

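Quantile normalization of the 4 arrays again moved the members' median to 0.62 against IgG, to -0.25 against input and to -0.65 for IgG minus input, and the median of IP minus IgG in the members' level range from 0.71 to 0.08. IgG at least 2-fold under input then held for 3 members in place of 8, a count repeated after seeing the data. Against IgG 6 members then rose and 2 fell (Eif3c and Eif3g, which turned to -0.44), and against input 3 rose (Eif3f, Eif3h and Eif3i). The 4 members with both IP arrays above both controls were again Eif3e, Eif3f, Eif3h and Eif3i under that normalization, an order recounted after seeing the data. This order follows from the ranks within each array. Rising against input were also 4 members by the common-spread test and 2 at an adjusted p below 0.1. At least 4-fold above IgG were 3 members (Eif3e, Eif3h and Eif3m, the last from an IgG value that may be background). The shares of all tested genes at 4-fold and at an adjusted p below 0.1 were not taken. Whether the members' counts at these settings are unusual is therefore not known. The other counts of calls stayed within 1.5 times under the filters and variance settings. Without IP replicate 1 or 2 in turn, the medians were 1.17 to 1.20 against IgG and -0.36 to -0.35 against input, and 5 members stayed at least 2-fold above IgG. With 1 IP array left no residual degrees of freedom remain, so the limma calls were not rerun there. No paired analysis was possible because only the IP group has replicate numbers. With single control arrays and no detection calls, differences from IgG for Eif3m rest on little measured error. So do calls for the tied Eif3b and Eif3c, and those for Eif3g and Eif3h, whose replicates differed by only about 0.01.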
